A study of Homo sapiens with 13 samples.

Results

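RUNX1 peaks on chromatin were examined gene by gene in MOLM-13 cells, an established human line of acute myeloid leukemia. The data were the 7688 regions in which a peak caller found RUNX1 signal above the IgG control, out of 17058 regions in the RUNX1 and PTBP1 lists together, and the PTBP1 list served only as a reference. Every region of the RUNX1 list was kept. A peak was given to each annotated gene whose transcription start site (TSS, the 5′ end of the gene) lay within 1 kb of the peak, and a peak with no such gene was given to the genes whose bodies it overlapped.

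The signal came from CUT&Tag, in which an antibody bound to a chromatin protein carries a transposase that cuts the DNA nearby and adds sequencing adapters. The series held 13 libraries of MOLM-13 cells, of which 2 biological replicates with a RUNX1 antibody and 1 library with IgG (CST, Danvers, MA) were RUNX1 and control libraries of this assay. The maker of the RUNX1 antibody is given as Abcam in the methods text and as Invitrogen in the antibody list of the study. All of them came from 1 cell line, whose MLL (KMT2A) fusion is shared by every sample. The list had no column for a replicate, so no spread between cultures can be given, and each interval is a 95% Wilson interval that covers counting error only.

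RUNX1 is the DNA-binding subunit of core binding factor and pairs with CBFB, which strengthens its hold on DNA. Through its Runt domain it recognises the letters TGTGGT and the variant TGCGGT, in which the same site is read on the other strand as ACCACA or ACCGCA. It is needed for blood stem cells to arise in the embryo, it takes part in myeloid, lymphoid and megakaryocytic differentiation, and it is often mutated or fused to another gene in acute myeloid leukemia. It acts at promoters and enhancers with ETS factors such as PU.1, with CEBP and AP-1 factors, and with corepressors of the TLE and histone deacetylase families.

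The DNA under the summits of peaks at blood-cell genes shows what such a site looks like. The windows below are those of highest fold enrichment that held the letters at genes of the blood-cell lists described later, outside UTRs and with 1 window for each gene. Each is 101 bases of the hg38 plus strand, read from the reference genome and centred on the summit, with the RUNX letters of either strand in capitals.
RUNX1 intron 5, chr21:34865756-34865856: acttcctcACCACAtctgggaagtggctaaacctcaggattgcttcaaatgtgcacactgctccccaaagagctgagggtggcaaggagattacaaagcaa
FOS, upstream, chr14:75277261-75277361: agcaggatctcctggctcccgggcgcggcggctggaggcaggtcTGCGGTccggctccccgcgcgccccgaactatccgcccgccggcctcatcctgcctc
LYL1 intron 3, chr19:13100200-13100300: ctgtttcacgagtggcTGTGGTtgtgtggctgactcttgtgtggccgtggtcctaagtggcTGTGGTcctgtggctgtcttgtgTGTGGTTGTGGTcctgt
RUNX3, upstream, chr1:24965125-24965225: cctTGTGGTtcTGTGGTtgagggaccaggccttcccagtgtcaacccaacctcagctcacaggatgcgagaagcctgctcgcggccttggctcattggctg
ALOX5 intron 1, chr10:45380362-45380462: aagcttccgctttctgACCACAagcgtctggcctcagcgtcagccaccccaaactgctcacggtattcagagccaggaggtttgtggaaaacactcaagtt
ITGB2, upstream of the canonical transcript, chr21:44925461-44925561: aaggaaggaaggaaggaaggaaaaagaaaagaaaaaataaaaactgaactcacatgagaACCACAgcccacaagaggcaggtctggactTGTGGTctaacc
BACH1, downstream of the canonical transcript, chr21:29348284-29348384: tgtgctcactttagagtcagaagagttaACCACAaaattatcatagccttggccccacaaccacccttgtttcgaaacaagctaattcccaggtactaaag
CD38 intron 1, chr4:15779063-15779163: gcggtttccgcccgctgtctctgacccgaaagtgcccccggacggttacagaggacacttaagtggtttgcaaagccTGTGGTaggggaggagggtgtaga
ALOX5AP intron 1, chr13:30737717-30737817: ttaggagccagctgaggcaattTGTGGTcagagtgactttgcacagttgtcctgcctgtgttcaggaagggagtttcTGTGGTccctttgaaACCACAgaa
FLT3 intron 15, chr13:28031602-28031702: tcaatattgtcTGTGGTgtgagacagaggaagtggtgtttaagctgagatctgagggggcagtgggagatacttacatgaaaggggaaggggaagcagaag

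The RUNX3 window held 2 adjacent copies of TGTGGT, the ALOX5AP window held 3 matches and the LYL1 window held 4 within a stretch of repeated letters. The FOS window, in GC-rich sequence, held the variant TGCGGT. The FLT3 window, in the gene of a receptor tyrosine kinase, carried a match close to the letters gaggaagt, which are the motif searched for PU.1.

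Of the 7688 peaks, 4129 lay at a TSS (53.7%, interval 52.6 to 54.8), 2599 lay in gene bodies (33.8%, interval 32.8 to 34.9) and 960 lay in neither (12.5%, interval 11.8 to 13.2). Fold enrichment, the ratio the authors deposited for each peak, sets the summit's pileup of fragments over the background after 1 is added to both. Its median was 15.0 at TSSs, 14.3 in gene bodies and 14.5 between genes. The 3 locations therefore held peaks of nearly equal height. The median width was 715 bases at TSSs, 580 bases in gene bodies and 573 bases between genes. The fold enrichment and its p-value together fixed the whole number of fragments at each summit, which was 8 at the lowest, 20 at the median and between 14 and 32 for the middle 50% of peaks. The background was raised above 1.5 times its usual value of 0.330 fragments at 395 peaks, of which 220 were at TSSs, 132 in gene bodies and 43 between genes. A gene without a peak in this list had no region above the threshold at this depth, which does not show that RUNX1 was absent there.

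Many starts shared a peak. Of the 4129 TSS peaks, 2328 had 1 gene within reach and 1801 had 2 or more, with 8 genes at the most crowded. A protein-coding gene lay at 3558 of them, 700 had 2 or more such genes, and 571 had noncoding genes only. Summits at protein-coding genes sat close to the start, at a median distance of 165 bases. In all, 34.9% were within 100 bases, 64.1% within 250 bases and 83.4% within 500 bases. Upstream summits made up 46.8% and downstream summits 53.0%, so the signal lay on both sides of the start.

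**Figure D1:**
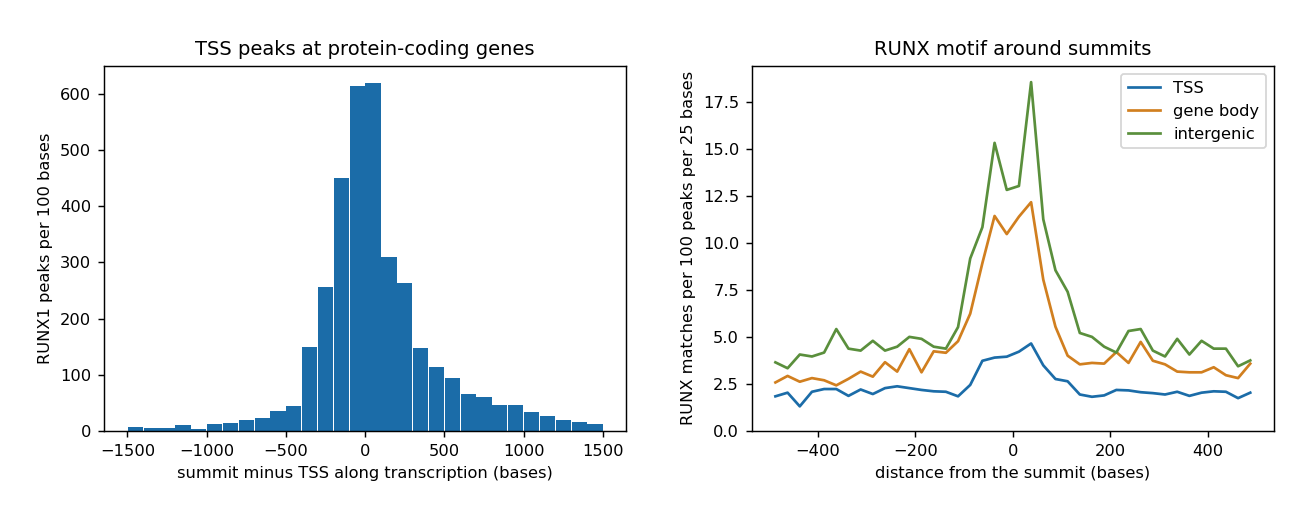
The left panel gives the number of RUNX1 peaks (y axis, peaks per 100 bases) by the distance of the summit from the nearest protein-coding TSS (x axis, bases, negative upstream) for TSS peaks, which gather around 0 with 34.9% within 100 bases. The right panel gives RUNX motif matches per 100 peaks in steps of 25 bases (y axis) by distance from the summit (x axis, bases) for the 3 locations, where the lines rise around the summit to 4.65 matches at TSSs, 12.2 in gene bodies and 18.5 between genes.

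The RUNX motif separated the locations. Within 50 bases of the summit, TGTGGT or TGCGGT on either strand was found at 14.3% of TSS peaks (interval 13.2 to 15.4), 33.6% of gene-body peaks (31.8 to 35.4) and 41.25% of intergenic peaks (38.2 to 44.4). Windows of the same 101 bases placed 500 bases to the left of the same summits held it in 6.85%, 9.35% and 9.17%, and windows on the starts of all 20033 protein-coding genes held it in 7.27%. The excess of summits over flanks was 7.41 percentage points at TSSs (exact sign test, two-sided, exact adjusted p = 1.53e-28), 24.2 points in gene bodies (exact adjusted p = 4.55e-102) and 32.1 points between genes (exact adjusted p = 2.93e-62). The share in gene bodies was 19.3 points above that at TSSs, and the intergenic share 26.985 points above it (Fisher's exact test, exact adjusted p = 1.16e-75 and 1.87e-70). Gene-body and intergenic peaks differed by 7.70 points (exact adjusted p = 2.42e-05). Neighbouring peaks are not independent, so these tests describe the list and not cultures. GC content moved with location, with a mean of 67.1% at TSS summits, 55.7% in gene bodies and 53.1% between genes against 58.9%, 50.98% and 48.6% in the flanks, and its part in these differences was not tested.

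Nearly all of the difference between locations lay in the letters TGTGGT. They occurred at 6.83% of TSS summits, 26.7% of gene-body summits and 35.1% of intergenic summits, against 4.09%, 7.39% and 8.02% of flanks. The variant TGCGGT occurred at 8.02%, 8.27% and 8.12% of summits, a nearly equal share in each location, against 2.88%, 2.08% and 1.15% of flanks.

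The share of peaks with the motif was larger among taller peaks. Among the 10% of all peaks with the lowest fold enrichment it was 10.4% (7.70 to 13.8) at TSSs, 20.5% (16.2 to 25.6) in gene bodies and 21% (14.2 to 30.0) between genes. In the highest 10% it was 19.4% (interval 16.0 to 23.4), 50.6% (44.3 to 57.0) and 54.4% (44.2 to 64.3). In each of the 10 bins the TSS share was the lowest of the 3 locations. Beside the motif, overlap with PTBP1 peaks also differed. PTBP1, a splicing regulator that the study profiled in the same cells, had a peak overlapping 77.9% of TSS peaks (interval 76.6 to 79.2), 41.8% of gene-body peaks (39.9 to 43.7) and 34.1% of intergenic peaks (31.1 to 37.1). Among TSS peaks the RUNX motif share was 24.5% (21.8 to 27.4) without a PTBP1 peak and 11.4% (10.3 to 12.5) with one. It was 43.0% (40.5 to 45.5) and 20.4% (18.1 to 22.9) in gene bodies, and 50.1% (46.2 to 54.0) and 24.2% (19.8 to 29.1) between genes. The median fold enrichment without and with a PTBP1 peak was 11.3 and 17.3, 12.8 and 16.5, and 14.3 and 16.5 in the same order, and the differences in motif share were not tested.

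**Figure D2:**
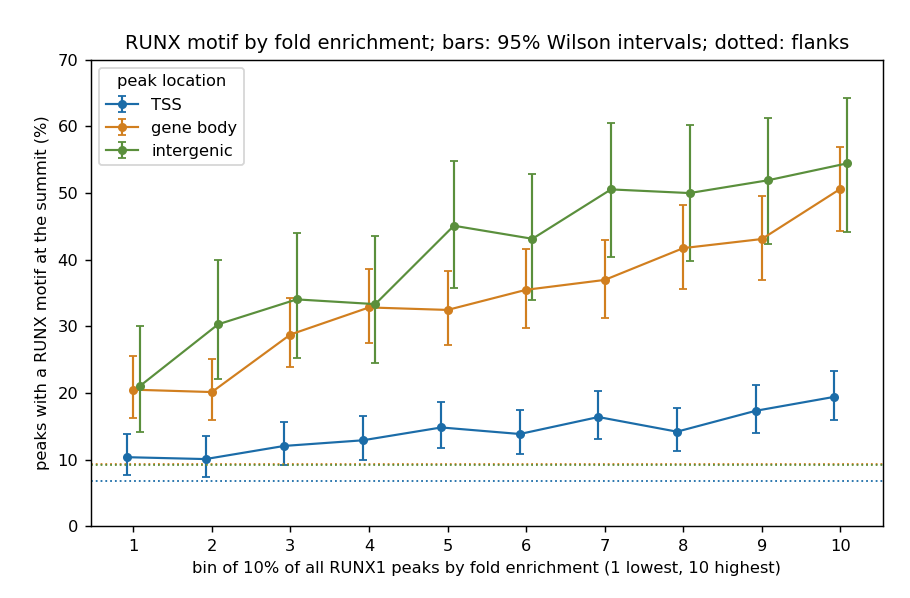
Share of RUNX1 peaks with TGTGGT or TGCGGT within 50 bases of the summit (y axis, percent) in 10 bins of all peaks ranked on fold enrichment (x axis), with a line for each location, bars as 95% Wilson intervals and dotted lines for the flanks. The gene-body line goes from 20.5% in the lowest bin to 50.6% in the highest, and the TSS line from 10.4% to 19.4%.

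Motifs of other factors were compared in the same way. Searched on both strands, 14 motifs gave 42 comparisons of summit with flank, of which 21 were higher and 2 lower at the summit (exact sign test, two-sided, adjusted over the 42). PU.1, the master regulator of myeloid cells, was sought as GAGGAAGT and found at 3.77% of gene-body summits against 0.846% of flanks (exact adjusted p = 4.46e-12) and at 3.33% of intergenic summits against 0.312% (exact adjusted p = 1.59e-06). At TSSs the PU.1 shares were 1.07% and 0.654% (exact adjusted p = 0.0918), near the 1.02% of all protein-coding starts. The AP-1 motif TGANTCA, the site of FOS and JUN dimers, was at 5.16% of gene-body summits against 2.46% (exact adjusted p = 1.51e-06) and 4.69% of intergenic summits against 2.5% (exact adjusted p = 0.0279), whereas TSS summits and flanks had 1.40% and 1.48% (exact adjusted p = 0.943). It was in 1.91% of all starts. CEBP sites, bound by granulocyte and monocyte factors and sought as TTGCNNAA or TTGTGNAA, were at 7.23% of gene-body summits against 5.04% (exact adjusted p = 0.00268) and 8.54% of intergenic summits against 5.10% (exact adjusted p = 0.00725).

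At TSSs the CEBP motif was lower at the summit, 2.52% against 3.95% (exact adjusted p = 0.00094), and so was the GATA motif AGATAA, 1.21% against 2.83% (exact adjusted p = 1.06e-06). These 2 were the only motifs found less often at summits by the test. All starts held them in 2.99% and 2.27%. The general ETS letters CCGGAAG or CAGGAAG, of which the latter shares AGGAAG with the PU.1 motif, were higher in all 3 locations, at 8.67% of TSS summits against 5.45%, 9.50% of gene-body summits against 4.73% and 7.60% of intergenic summits against 4.06% (exact adjusted p = 1.38e-07, 2.93e-10 and 0.00268), and were in 11.995% of all starts. The MYB motif CNGTTG was also higher in all 3, most so between genes, at 15.1% against 9.69% (exact adjusted p = 0.00121).

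Motifs of several promoter factors were higher at TSS summits than in the flanks. NFY, which binds CCAAT boxes, had its letters at 16.2% of TSS summits against 9.20% of flanks (exact adjusted p = 4.64e-20), while gene-body summits and flanks had 10.2% and 10.4% (exact adjusted p = 0.959). The GC box GGGCGG, bound by SP and KLF factors, was at 42.4% of TSS summits against 20.1% (exact adjusted p = 5.35e-110), and it was also higher in gene bodies (14.1% against 6.77%) and between genes (9.48% against 4.06%). NRF1 (TGCGCATGC) and YY1 (AAGATGGC) were found at 0.872% and 1.55% of TSS summits against 0.0969% and 0.363% of flanks (exact adjusted p = 9.75e-07 and 1.38e-07). The cyclic AMP response element TGACGTCA and the E-box CACGTG, a site of MYC and USF proteins, were higher at TSSs as well (0.702% against 0.218%, exact adjusted p = 0.00268, and 3.15% against 1.74%, exact adjusted p = 0.000147). Windows on all protein-coding starts held NRF1 in 1.02%, YY1 in 2.00%, TGACGTCA in 1.21% and CACGTG in 3.45%, each above the TSS summit share. They held CCAAT in 12.4% and the GC box in 32.5%, both below the TSS summit share. The E-box CAGCTG was higher in gene bodies, 7.54% against 5.93% (exact adjusted p = 0.0428). The interferon factor motif, GAAA repeated after 2 free bases, passed the test in none of the 3 locations (exact adjusted p = 0.0821, 0.938 and 0.751).

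**Figure D3:**
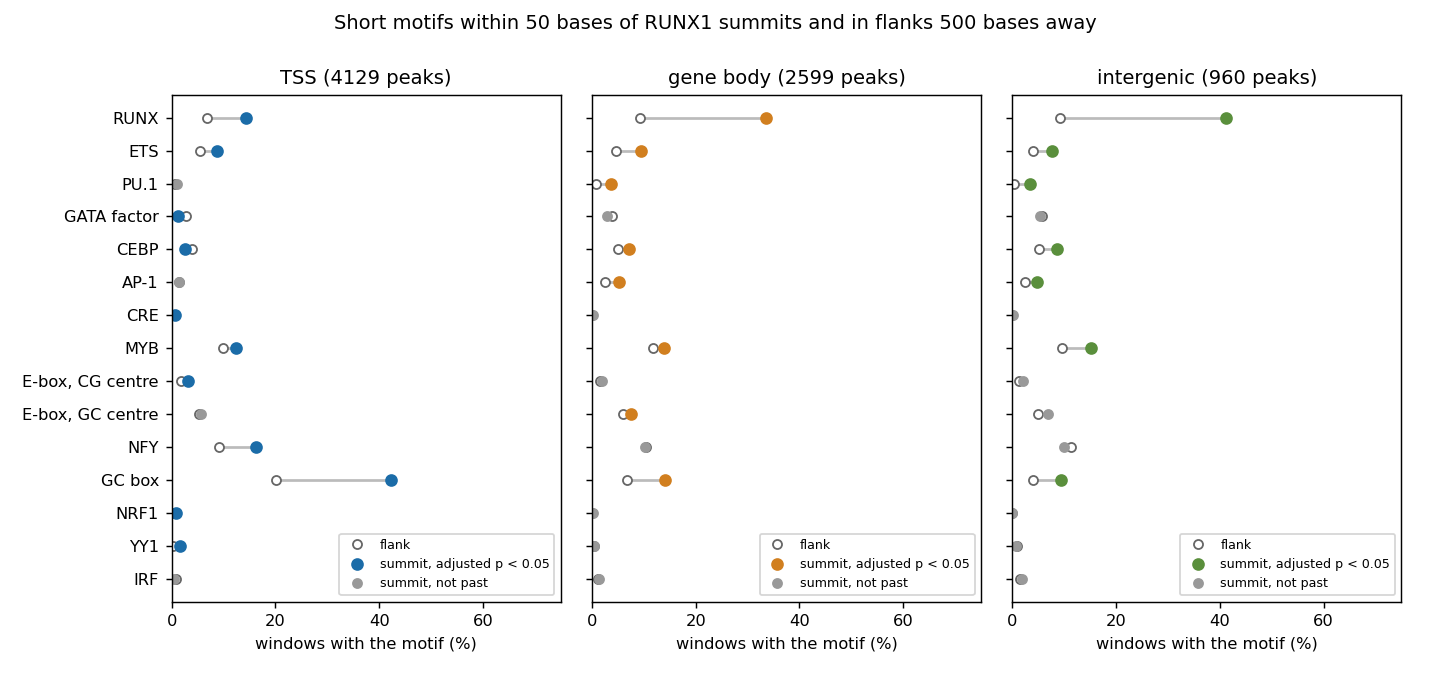
Share of windows that hold each motif (x axis, percent) for RUNX and 14 other motifs (rows) in the 3 locations (panels), with open points for flanks 500 bases away and filled points for summits, coloured where the exact sign test gave an adjusted p under 0.05. RUNX at gene bodies (33.6% against 9.35%) and between genes (41.25% against 9.17%) and the GC box at TSSs (42.4% against 20.1%) are the widest gaps.

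RUNX1 peaks were assigned to a minority of protein-coding genes. A TSS peak was found at 4266 of 20033 (21.3%), a peak at the TSS or in the body at 5535 (27.6%), and a peak near the start of any annotated transcript at 5012 (25%). The TSS alone was marked in 3739 genes, both places in 527 and the body alone in 1269. The 10 gene lists set genes of blood cells and leukemia beside genes of other lineages. The former also hold RUNX cofactors and KMT2A machinery, which are not markers of blood cells. The 7 blood-cell and leukemia lists together held 210 genes, of which 77 had a TSS peak (36.7%, interval 30.4 to 43.4, against 21.3% overall) and 111 had any peak (52.9% against 27.6%). By list, the TSS share went from 23.9% at myeloid surface proteins to 52% at KMT2A fusion machinery and targets. Name families, described below, went from 0% at keratins to 61.5% at hnRNP genes, with 37.2% at cytosolic ribosomal protein genes. The pooled share is thus not particular to blood-cell genes. The lymphoid, erythroid and megakaryocytic, and non-hematopoietic lists held 79 genes, and 0 had a TSS peak, where a count of 0 allows a share of up to 3.80% (3 counts of the total). By the start of any transcript, 102 of the 210 (48.6%) and 2 of the 79 (2.53%, PAX5 and PECAM1) had a peak, against 25%. Some body peaks named below thus lie near the start of another transcript of the gene.

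**Figure D4:**
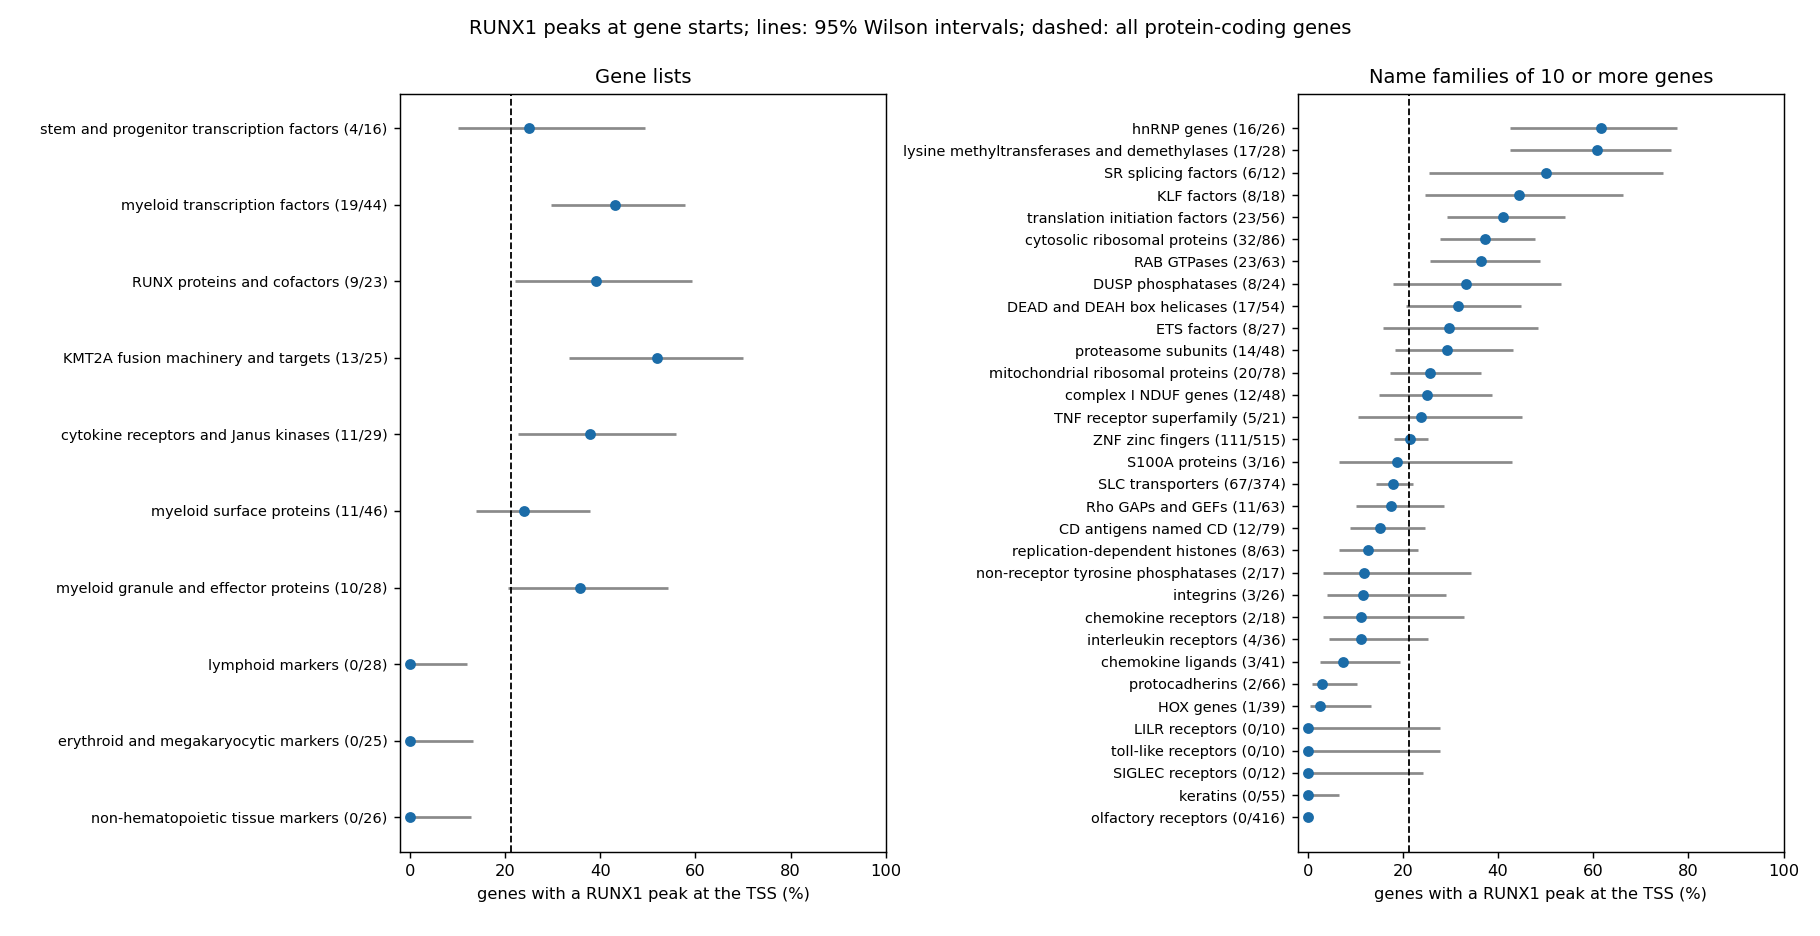
Share of genes with a RUNX1 peak at the TSS (x axis, percent) for the 10 lists and for the name families of 10 or more genes (rows, with the count in brackets), with 95% Wilson intervals and a dashed line at 21.3% for all protein-coding genes. The 3 lists of other lineages sit at 0, and hnRNP genes (16 of 26) and lysine methyltransferases and demethylases (17 of 28) are the families farthest to the right.

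Among RUNX proteins and their cofactors, 9 of 23 genes had a TSS peak (39.1%, interval 22.2 to 59.2) and 15 had any peak (65.2%). RUNX1 itself had 10 peaks, all in the gene body by the main rule, since its annotated 5′ end lies far upstream of the usual transcripts. Several of them lay upstream of the canonical transcript, so the count rests on this long annotation. Within 1 kb of the start of any transcript, RUNX1 had 2 peaks. Its tallest, chr21:34865382-34866368 in intron 5 of the canonical transcript, had a fold enrichment of 130.8 from 173 fragments and carried the motif shown above. The next, in intron 3 (chr21:34887775-34890866) reached 42.9 and also held the motif. Another, 79479 bases from the annotated 5′ end and upstream of the canonical transcript, reached 31.6 with no motif. The other 7 lay between 5.59 and 15.8, and 2 of them, in the 5′ UTR and upstream of the canonical transcript, stood on a raised background. RUNX3 had a TSS peak of 48.9 (chr1:24964909-24965891), whose summit was 54 bases upstream of the start and held the paired motif, and a body peak of 13.5. CBFB, the partner subunit, had a TSS peak of 20.3 without the motif. RUNX2 had no peak.

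The coactivator EP300, a histone acetyltransferase, had the tallest TSS peak of the cofactors at 53.4, and PRMT1, an arginine methyltransferase that modifies RUNX1, had one of 32.3. TSS peaks also stood at the corepressors TLE1 (18.0), TLE3 (16.5) and CBFA2T2 (15.8), and at KAT6A (11.3). In gene bodies, CBFA2T3 had a peak of 23.3 in intron 1. The 8 cofactors or relatives to which no peak was assigned were RUNX2, RUNX1T1, HDAC1, NCOR1, SIN3A, CREBBP, TLE5 and PRMT6, although 2 peaks lay within 1 kb of the start of some SIN3A transcript.

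The list of KMT2A fusion machinery and targets was chosen because MOLM-13 carries a KMT2A fusion. It had the highest share, with 13 of 25 genes at the TSS (52%, interval 33.5 to 69.97) and 17 with any peak. Most of the 13 were machinery, namely KMT2A, MLLT10, AFF4, DOT1L, PSIP1, ASH2L, WDR5, RBBP5, HCFC1 and ELL. MLLT1, MLLT3, AFF1, MEN1, DPY30 and EAF1 were machinery without a TSS peak. Of the targets, PBX3, JMJD1C and BCL2 had a TSS peak, and HOXA5, HOXA7, HOXA9, HOXA10, MEIS1 and CDK6 had none. The share of the whole list is therefore not a share for targets of the fusion. JMJD1C, a demethylase family member, led the list at 36.1, in a peak shared with REEP3. PBX3, a HOX cofactor, had 27.1, HCFC1 25.6 and the elongation factor ELL 23.1, the last on a raised background. DOT1L, the H3K79 methyltransferase, had a TSS peak of 18.8 and a taller one in intron 1 at 60.2 (chr19:2168254-2169429). KMT2A itself had a TSS peak of 12.03, 89 bases upstream of the start. HOXA9 had a body peak of 8.27, while HOXA5, HOXA7, HOXA10, MEIS1, MEN1 and MLLT3 had none. For HOXA9, 1 peak lay within 1 kb of the start of some transcript.

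Of 16 stem and progenitor transcription factors, 4 had a TSS peak (25%, interval 10.2 to 49.5, beside 21.3% of all genes) and 6 had any. The helix-loop-helix factor LYL1 had both a TSS peak of 40.6 and the intron 3 peak of 50.4 shown above. The homeobox factor HHEX had 21.1 at 50 bases upstream of its start, TAL1 had 16.5 with the motif in intron 1, and ZFPM1 had 13.1 on a raised background. LMO2 and ETV6 had body peaks of up to 19.5 and 17.3. No peak was assigned to GATA2, FLI1, ERG, MEIS1, MECOM and 5 others of the list, although 1 lay within 1 kb of the start of some GATA2 transcript.

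Myeloid transcription factors had a TSS peak in 19 of 44 genes (43.2%, interval 29.7 to 57.8) and any peak in 28. Of its immediate early genes, FOS had 63.2 in a peak whose summit lay 1515 bases upstream (chr14:75276970-75279516), EGR3 59.4, JUND 39.8, JUN 21.8 and EGR1 16.1, the last on a raised background. FOSB reached 12.03 and JUNB had no peak. EGR2 had a body peak of 9.77 with none at its TSS, although 1 peak lay within 1 kb of the start of some EGR2 transcript. The median over the 19 genes with a TSS peak was 15.8. GFI1, a repressor, had 30.8 at 51 bases past its start. IRF7, an interferon regulator, had 30.8 at 95 bases upstream of its start, MEF2D 26.3, CEBPG 22.6, KLF2 15.8, CEBPD 14.3 and MYB 13.5. In gene bodies, the retinoic acid receptor RARA had a peak of 83.5 in intron 1 (chr17:40322032-40323485), IRF1 had 4 peaks of up to 30.8 along its annotated span, BACH1 had 30.1 downstream of its canonical transcript and VDR 18.0 in intron 3. Within 1 kb of the start of any transcript, RARA and IRF1 had 2 peaks each, VDR 1 and BACH1 0. SPI1, which encodes PU.1, and CEBPA, CEBPB, CEBPE, IRF8, STAT3 and RELA were among the 16 with no peak.

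Cytokine receptors and Janus kinases had a TSS peak in 11 of 29 genes (37.9%, interval 22.7 to 56.0) and any peak in 17. The interferon gamma receptor chain IFNGR1 had 60.9 (65 bases past its start) and the interleukin 6 receptor IL6R 58.6 (258 bases past it). The erythropoietin receptor EPOR had 33.1, with the summit 2656 bases downstream of the start inside a wide peak. IL10RB and JAK2 had 15.8 each, IFNGR2 14.3, IL10RA 13.5 and IFNAR1 12.8. Body peaks stood in IFNAR2 (30.8), FLT3 (25.6 in intron 15, with the motif and no PTBP1 peak), TNFRSF1A (24.1) and TYK2 (23.3). KIT, the stem cell factor receptor, had 22.6 with the motif in intron 1, and CSF1R, the receptor of macrophage colony-stimulating factor, 14.3 in intron 1. CSF3R, CSF2RB and IL3RA had no peak.

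Myeloid surface proteins had a TSS peak in 11 of 46 genes (23.9%, interval 13.9 to 37.9, near the 21.3% of all genes) and any peak in 15. CD38 had 27.8 with the motif 838 bases past its start, CD63 and CD68 26.3 each, the integrin chains ITGB2 24.8, ITGA4 21.8 and ITGAM 11.3, and the P-selectin ligand SELPLG 15.9 on a raised background. FCER1G, an adaptor of Fc receptors, had 14.3, with the motif. In gene bodies, CD48 had 2 peaks in intron 1 (45.9 and 35.3), ITGB2 had 34.6 upstream of its canonical transcript and SIGLEC9 had 20.3. CD33, CD14, CD34, PTPRC, CD44, TLR2 and CXCR4 were among the 31 without any.

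Granule and effector proteins had a TSS peak in 10 of 28 genes (35.7%, interval 20.7 to 54.2, which holds the 21.3% of all genes) and any peak in 13. BPI, an antibacterial protein of neutrophil granules, had the tallest TSS peak of all 7 lists, 87.2 from 115 fragments, 20 bases upstream of the start (chr20:38303598-38305278). RNASE2 followed at 30.1, ELANE at 24.1, GRN at 18.0, CTSG at 17.3, AZU1 and S100A12 at 15.8 each. The ELANE peak had its summit 2231 bases upstream of the annotated start. ALOX5 and ALOX5AP, which act together in leukotriene synthesis, had no TSS peak but body peaks with the motif in intron 1, at 43.6 and 27.8. ALOX5AP had a further body peak of 15.0 with the motif, upstream of its canonical transcript. Within 1 kb of the start of any transcript, ALOX5AP had 1 peak and ALOX5 had 0. NCF1 had 20.3 in intron 10, in a gene with near-identical copies, so its reads may be uncertain. No peak was assigned to MPO, PRTN3, LYZ, S100A8, S100A9 and CYBB. The ELANE peak (chr19:847963-850643) also overlapped the end of the PRTN3 body (chr19:840999-848175), but the rule gave it to ELANE only.

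In all, 4 genes of the other-lineage lists had peaks in the body. PAX5, a B-cell factor, had 3, the tallest 66.9 with the motif in intron 9 (chr9:36841957-36843353). PECAM1 had 3, the tallest 72.9 in intron 15. It encodes an adhesion protein of endothelium and of blood cells such as platelets, although it was placed on the non-hematopoietic list. ITGB3 had 15.8 and SYP 14.3. Globin, CD3 and liver genes of these lists had none.

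At the genes of the 7 blood-cell and leukemia lists, the share of peaks with the RUNX motif was near that at all genes. Of 78 TSS peaks at the 7 lists, 8 held it (10.3%, interval 5.29 to 19.0), beside 13.0% of the 3558 peaks at all protein-coding starts. Of 75 body peaks, 24 held it (32%, interval 22.5 to 43.2), beside 32.6% of 2246. PTBP1 peaks overlapped 58 of the 78 (74.4%, beside 79.9%) and 29 of the 75 (38.7%, beside 43.4%).

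Gene families defined by their names ranged more widely than the blood-cell lists. Differences between families were not tested. Among genes whose products act on RNA, TSS peaks stood at 16 of 26 hnRNP genes (61.5%, interval 42.5 to 77.6), 6 of 12 SR splicing factors (50%, 25.4 to 74.6) and 23 of 56 translation initiation factors (41.1%, 29.2 to 54.1), against 21.3% of all genes. DEAD and DEAH box helicases had 17 of 54 (31.5%), with an interval of 20.7 to 44.7 that holds 21.3%. HNRNPA2B1 (57.9), HNRNPC (42.1) and HNRNPA1 (41.4) led the hnRNP genes. All 16 genes had a TSS peak that overlapped a PTBP1 peak, beside 79.9% of TSS peaks at all protein-coding genes. Cytosolic ribosomal protein genes had 32 of 86 (37.2%, interval 27.7 to 47.8), led by RPL3 at 42.1 and RPS10 at 41.4. Lysine methyltransferases and demethylases had 17 of 28 (60.7%, interval 42.4 to 76.4), with KDM4A at 135.3 the tallest. KLF factors had 8 of 18 (44.4%, interval 24.6 to 66.3), with KLF10 at 108.3, and RAB GTPases 23 of 63 (36.5%, interval 25.7 to 48.9), with RAB4B at 127.1.

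Intervals also held 21.3% for ZNF zinc fingers with 111 of 515 (21.6%, interval 18.2 to 25.3), SLC transporters with 67 of 374 (17.9%, 14.4 to 22.1), ETS factors with 8 of 27 (29.6%, 15.9 to 48.5) and interleukin receptors with 4 of 36 (11.1%, 4.41 to 25.3). ELF2 at 51.9 and ETV5 at 50.4 were the tallest of the ETS factors. Shares were lower at chemokine ligands with 3 of 41 (7.32%, interval 2.52 to 19.4), protocadherins with 2 of 66 (3.03%, 0.835 to 10.4) and HOX genes with 1 of 39 (2.56%, 0.454 to 13.2, HOXC4 at 9.77). No TSS peak was found at 55 keratins (a count of 0 allows up to 5.45%) or 416 olfactory receptors (up to 0.721%). None was found at 10 toll-like receptors, 10 LILR receptors, 12 SIGLEC receptors and 6 GATA factors either, but a count of 0 allows up to 30%, 30%, 25% and 50% there, all above the share of all genes. With the start of any transcript, the LILR, SIGLEC and GATA families each had 1 gene with a peak. Protocadherins had any peak in 24 of the 66, whose members share long overlapping spans.

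Few genes gathered many peaks. Of the 5535 genes with a peak, 4713 had 1, 601 had 2, 148 had 3 and 38 had 4, and 35 of all 20033 protein-coding genes had 5 or more (0.175%). Those 35 were long, with a median of 135.0 kb against 33.4 kb for genes with 1 peak and 24.1 kb for genes with none. RUNX1 was first with 10, over an annotated span of 1217 kb. At 0.822 peaks per 100 kb it had the lowest density of the 35. The arylhydrocarbon receptor repressor AHRR, the chromatin protein gene GSE1, the cytolinker PLEC and the kinase STK10, which phosphorylates ERM proteins in blood cells, had 8 each. PDCD6-AHRR, a readthrough of AHRR, shares peaks with it and also had 8. SYN3 and TG had 7 each, and CUEDC1, HIVEP3, IQSEC1, MBP and SKI were among those with 6. ABR had 5, of which the tallest reached 155.6.

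These genes differed in height, motif and PTBP1 overlap. The 10 RUNX1 peaks had a median fold enrichment of 13.5, 4 held the motif and 2 overlapped a PTBP1 peak. The 8 AHRR peaks were low, with a median of 9.68 and a highest of 23.1, and 4 of them stood on a raised background. All 8 overlapped PTBP1 peaks, as did all 8 in PLEC, where the median was 38.7 and 3 held the motif. At all protein-coding genes, 79.9% of TSS peaks and 43.4% of body peaks overlapped one from PTBP1. STK10 had a peak of 80.5 with the motif in intron 4, a TSS peak of 39.1 at 121 bases upstream, and 3 of 8 overlapped PTBP1. The 8 GSE1 peaks all lay upstream of the canonical transcript and reached 74.4, with 1 motif. The corepressor gene SKI, a TGF-beta antagonist, had a TSS peak of 40.6 and 5 peaks in intron 1 of up to 58.6. In MBP, named for myelin but with a longer transcript expressed in blood cells, 6 body peaks reached 83.5.

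**Figure D5:**
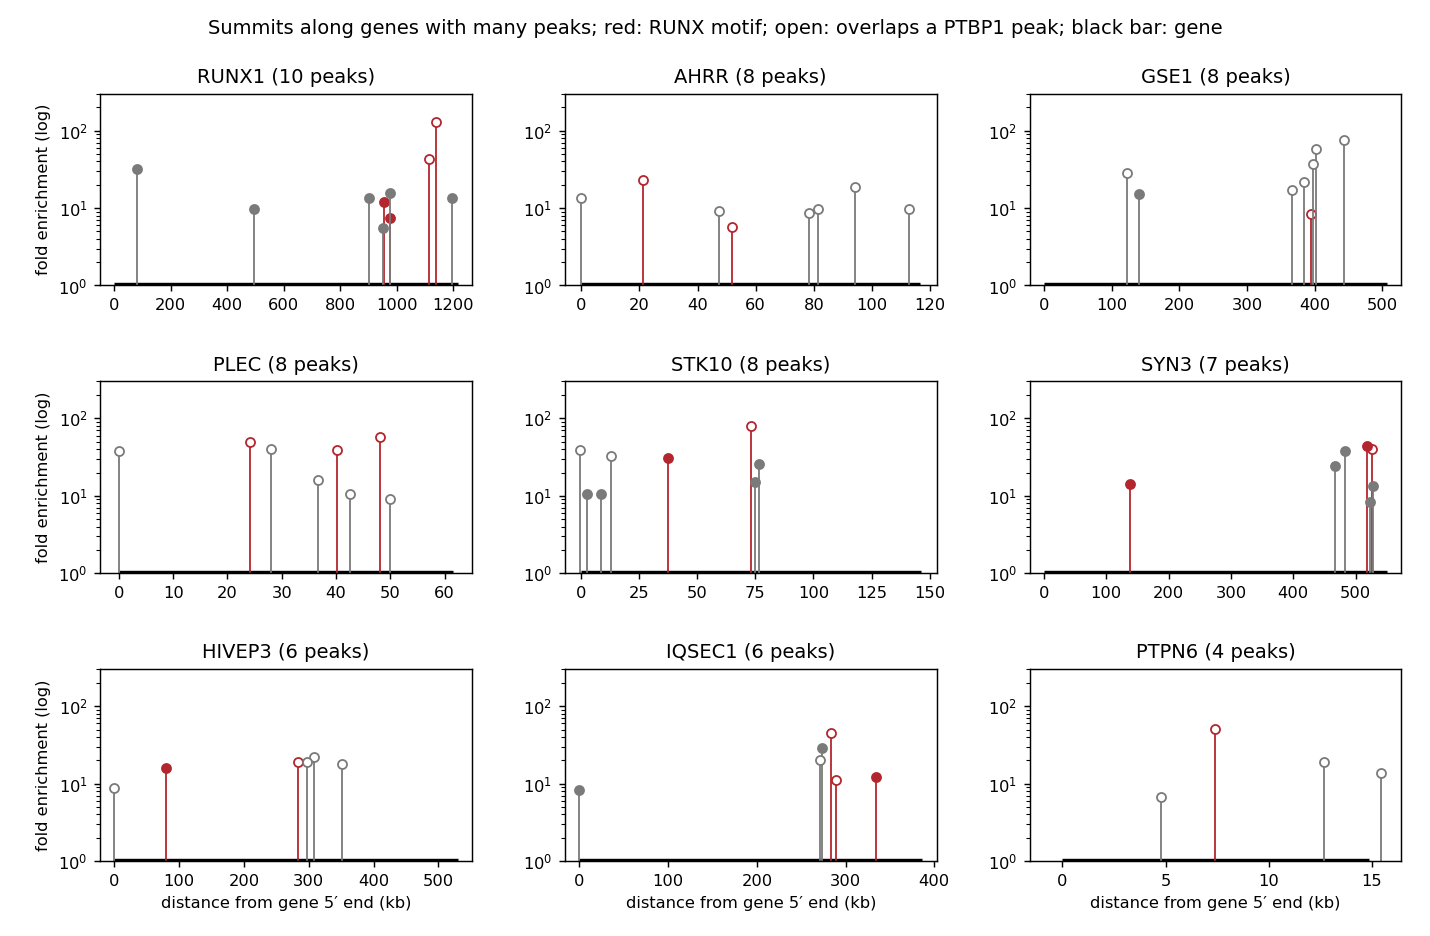
Fold enrichment (y axis, log scale) by distance of the summit from the gene's annotated 5′ end (x axis, kb) for 9 genes with many peaks, with a stem for each peak, red where the RUNX motif was within 50 bases of the summit, open where a PTBP1 peak overlapped, and a black bar for the gene. The tallest RUNX1 peaks (130.8 and 42.9) stand in the 3′ part of the gene, and all PLEC and AHRR points are open.

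Per length, the densest gene with 4 or more peaks was PTPN6, with 4 peaks in 14.8 kb (26.9 per 100 kb). PTPN6 encodes SHP-1, a phosphatase that restrains signalling in blood cells, and its tallest peak, 50.4 in intron 3, held the motif. JSRP1 (22.8 per 100 kb), PPT1 (20.4), VASP (19.6) and MOB3A (19.5) followed. The JSRP1 TSS peaks were also at OAZ1, so both genes count the same regions. The start of PPT1, a lysosomal thioesterase, had a peak of 82.7, that of MOB3A 76.7 and that of VASP, an actin regulator, 60.2.

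The 10 tallest peaks were at none of the listed blood-cell genes. The highest, 668.4 from 888 fragments, lay in intron 39 of CPAMD8 on chromosome 19 (chr19:16895881-16898197) and held the motif. The next, of 254.1, was assigned to the start of ARHGAP39, with its summit 1890 bases upstream of the gene. Then came peaks in the body of HYLS1 upstream of its canonical transcript (208.3), in a lncRNA gene on chromosome 6 (199.2) and at the start of NUDT7 (195.5). Another of 195.5 lay in the pseudogene REXO1L1P, where near-identical copies make the signal uncertain. The others of the top 10 were an intergenic peak near the short-arm end of chromosome 7 (182.7), the shared start of BLVRB and SPTBN4 (181.2), an intergenic peak 60819 bases from F3 (178.2) and the start of MTMR4 (176.7). Of these 10, 8 held the motif, beside 14.3% of all TSS, 33.6% of all gene-body and 41.25% of all intergenic summits. A PTBP1 peak overlapped 9 of them, beside 60.2% of all peaks. All 10 stood on the usual background, as did 7293 of the 7688 peaks.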

How the data were processed

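Reads were mapped by the authors with Bowtie2 (hg38), filtered for mapping quality and freed of duplicates before MACS3 peak calling at q 1e-07. Pooling of replicates is not given in the sources used here, and the list was taken as CUT&Tag, the assay for which the methods describe peak calling. The deposited columns hold the fold enrichment ratio, the −log10 p-value, the −log10 q-value and a score (10 times the latter, deposited as a whole number). A whole pileup and a background were solved from fold enrichment and p-value (largest difference 0.00134 in −log10 p). Total depths were not used.

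Genes came from GENCODE version 44 (62663 genes), places from canonical transcripts at the summit, and coordinates are 1-based. Motifs were compared by two-sided exact sign and Fisher's exact tests with Benjamini-Hochberg adjustment within each family (threshold 0.05). Procedures were tested on simulated data. The members, the gene lists and 36 name families were chosen with earlier results of these data known. Genes named were up to 8 per list by TSS and 4 by body fold enrichment, RUNX proteins and CBFB, the 15 with most peaks, the 5 densest with 4 or more, the top 10 peaks and up to 3 per family. Sequences were taken outside UTRs and chromosome 8. Other names, such as those without a peak, were chosen after their values were seen. Alternatives changed the q threshold, the TSS rule, the raised background, the gene assignment, the motif letters, window and flank. The tools were Python 3.11.15 with scipy 1.17.1, numpy 2.4.6, matplotlib 3.10.9 and pandas 2.3.3. Some members of the gene lists are counted but not reported singly here.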

Additional observations from a re-analysis of the deposited data

How the results depend on the processing

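No paired analysis was possible because the list gives no replicate, and for the same reason no replicate could be left out. Every alternative listed for these results was run. The share of peaks at a TSS, 53.7%, became 55.1% with a −log10 q of at least 15, 64.5% with the start of any transcript, 51.2% with the summit within 1 kb and 41.3% with the start inside the peak. Genes with 5 or more peaks fell from 35 to 16 at the stricter q. With the start of any transcript, myeloid transcription factors had 59.1% and RUNX proteins and cofactors 60.9% with a TSS peak, against 25% of all genes. With the start inside the peak, the KMT2A list had 28%, cytokine receptors 17.2% and granule proteins 14.3%. The share of all genes under this narrower rule is not given here. The 21.3% of all genes belongs to the main rule and is no reference for these shares. PTBP1 overlap was 61.7% at TSSs, 31.6% in gene bodies and 26.1% between genes with summits at most 200 bases apart, and 83.7% and 44.9% at TSSs and in gene bodies at the stricter q. With flanks to the right, 4 other motifs were lower at summits in place of 2. The 6 RUNX motif comparisons kept their direction and stayed past the threshold in all 21 refits with other letters, windows, flanks or q. Of 69 refits of the 23 other motif differences, 3 lost the threshold and 0 changed direction, and of 180 recounts of families 14 left the interval of the reported share.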

Other observations

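Noncoding genes carried fewer peaks at their starts than the 21.3% of protein-coding genes. lncRNA genes had them at 1537 of 18866 (8.15%, interval 7.77 to 8.55), miRNA genes at 5.38% of 1879, snoRNA genes at 21 of 942 (2.23%) and processed pseudogenes at 40 of 10146 (0.394%). The miRNA genes with the tallest peaks were MIR4513 (119.5), MIR6847 (116.5) and MIR6833 (106.0). MIR1281 and MIR3188 lie in peaks also counted at EP300 and JUND. Immunoglobulin V genes (145) and T-cell receptor V genes (107) had 0 peaks, where a count of 0 allows 2.07% and 2.80%.

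Chromosome 19 had the densest peaks, 9.84 per Mb, followed by chromosome 17 with 6.73. The X chromosome had 0.775 per Mb and a TSS peak at 67 of 859 protein-coding genes (7.80%). The share of protein-coding genes with a TSS peak on chromosome 19, 24.5%, was close to that of all genes. The Y chromosome had none.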
